A study of Homo sapiens with 16 samples.

Results

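Transcripts of the tumor necrosis factor (TNF) superfamily were followed while T24 bladder cancer cells became resistant to gemcitabine. The deposited table holds 39007 gene rows, of which 43 were taken as the superfamily: every row named TNFSF or TNFRSF followed by a number, without antisense rows, and TNF, LTA, LTB, LTBR, CD40, CD27, CD70, FAS, FASLG, EDAR, EDA2R, NGFR and RELT. Of these, 15 encode ligands and 28 encode receptors. The resistant line, GRC1, came from T24 human bladder cancer cells that were exposed to gemcitabine again and again while the survivors grew out. P0 is the parental T24 line, not yet exposed to gemcitabine, and the early (P3), intermediate (P7) and late (P15) phases are its successive survivors. The titles of all 16 libraries carry the label NT. The study's methods do not say whether gemcitabine was present when RNA was taken. The cells of all phases were grown in the same serum-containing DMEM with antibiotics. Total RNA of 4 libraries per phase was sequenced, 16 libraries in all. GRC1 is a single resistant line, and the labels name no separate derivations of it, so the p-values measure the spread between these libraries, which may be technical.

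TNF ligands are mostly trimeric membrane proteins that can be shed, and they cluster receptors on the same or a neighboring cell. A part of the receptors carries a cytoplasmic death domain, which recruits adaptors such as FADD or TRADD and can start caspase cleavage, while the other receptors bind TRAF adaptors that lead to NF-kappaB and MAPK signaling. Decoy receptors bind a ligand without passing on a death signal. In epithelial tumor cells the family is known for the control of apoptosis and inflammation, and many of its ligands and receptors act mainly between lymphocytes and antigen-presenting cells.

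Expression is given as log2(CPM + 1), called the log2 value here, where CPM is the count scaled to the size of the library. The spacing of the smallest values gave a depth of 33.9 to 50.0 M counts per library. Between 69.5 and 71.8% of the low values were even multiples, so that most fragments gave 2 counts. Phases were compared with limma over 13249 genes, those averaging above 1 CPM. A gene was said to have changed where its Benjamini-Hochberg adjusted p-value was below 0.05 and the difference of its log2 values reached 1, which is 2-fold, on a scale that understates the change of genes near 1 CPM. Below, 2-fold and under 2-fold refer to this scale, and the ratio of the CPM values can be larger. Late phase P15 stood apart from the other phases, with 23.6% of all tested genes changed against P0. The epithelial markers also differed there: the summed level of 6 such genes was 673 to 751 CPM in the P15 libraries and 1670 to 2480 CPM in the others, with KRT19 at 0.02 ± 0.04 in P15 (log2 value, SD, n = 4) and 6.43 ± 0.06 in P0. KRT18, in contrast, was 8.88 ± 0.03 in P0 and 9.31 ± 0.07 in P15, and CDH1 was at most 0.13 in any library. The summed level of 6 leukocyte markers was at most 0.509 CPM in any library, with PTPRC above 0 in 1 of 16, and that of 3 endothelial markers at most 1.32 CPM. The summed level of 5 fibroblast markers was 23.6 to 26.4 CPM in P15 and at most 5.77 CPM elsewhere. Nearly all of the P15 sum was COL1A1, with a log2 value of 4.64 ± 0.08 there (SD, n = 4). The mean log2 values in P15 were 0.31 for COL1A2, 0.17 for PDGFRA and 0.08 for LUM, and DCN was not detected. COL1A2 also had its highest phase mean in P15, but DCN, LUM and PDGFRA had theirs in P3. The fibroblast markers thus did not rise as a set. The part of these marker differences in the results below was not tested. In cultured cells sequenced in bulk, fewer cells with a transcript and less of it per cell cannot be told apart.

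Of the 43 members, 28 passed the filter (10 ligands and 18 receptors) and 15 did not. In 21 of the 28, every phase mean was above 1 CPM. The other 7 (LTB, TNFSF10, TNFSF13, TNFSF13B, TNFSF18, NGFR and TNFRSF19) had a mean at or below 1 CPM in some phase and passed through the phases in which they are high. Their counts, fold changes and p-values below are therefore a description of these libraries and no support for a difference. Late phase P15 held the lowest mean of 16 tested members and the highest mean of 9. The same was not counted over all tested genes, of which 23.6% changed between P0 and P15. These counts therefore do not tell whether the family differs from other genes.

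**Figure D1:**
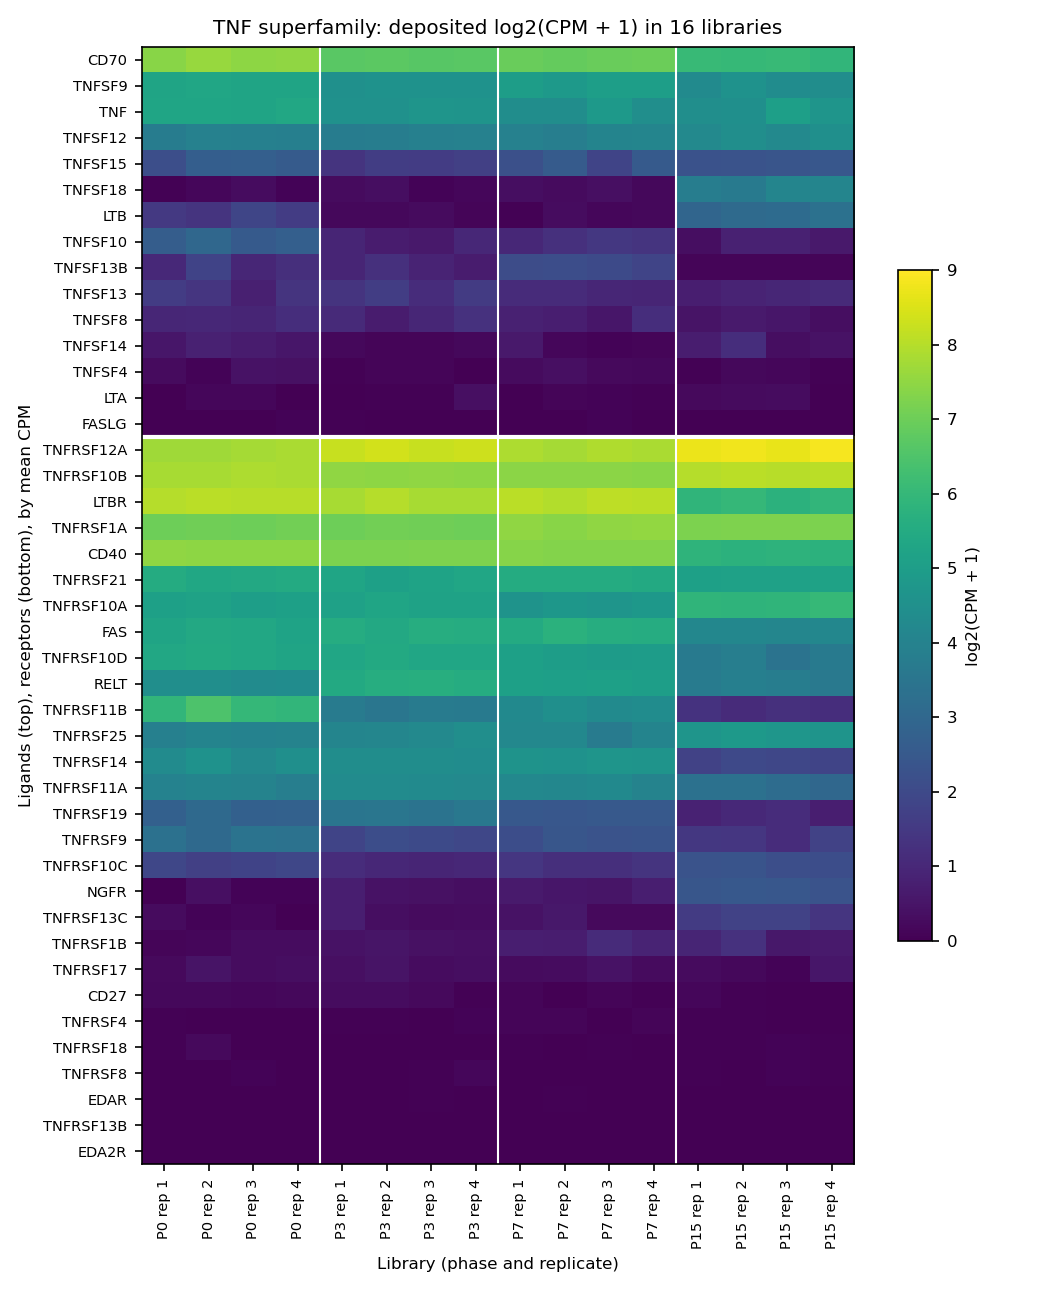
Log2(CPM + 1) of the 43 superfamily members (rows, ligands above and receptors below the white line, ordered by mean CPM) in the 16 libraries (columns). TNFRSF12A is the highest receptor by mean CPM, and 10 members stay below 0.5 in every library.

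Per kilobase of the reference transcript, the most abundant member in P0 was TNFRSF12A, the receptor of TWEAK, at 222 ± 9.5 CPM per kb (SD, n = 4 libraries). It was followed by the ligand CD70 at 196 ± 12, LTBR at 123 ± 2.6, CD40 at 105 ± 0.95, TNFRSF1A at 60.6 ± 1.3 and TNFRSF10B at 57.5 ± 1.5. TNFRSF12A and CD70, and likewise TNFRSF1A and TNFRSF10B, were next to each other with library ranges that almost touched. In P15 the order by the same measure was TNFRSF12A at 448 ± 24, CD70 at 70.3 ± 3.4, TNFRSF1A at 69.1 ± 1.3, TNFRSF10B at 66.2 ± 1.4, CD40 at 32.7 ± 0.79 and LTBR at 27.5 ± 1.6. CD70 overlapped both TNFRSF1A and TNFRSF10B there. LTBR and CD40 thus moved behind TNFRSF1A and TNFRSF10B.

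In early phase P3, 5 of the 28 tested members had changed against P0, 1 higher and 4 lower, where 4.46% of all tested genes had changed, 1.95% higher and 2.51% lower. Between P3 and P7, 2 members changed, 1 in each direction, against 1.83% of all genes (0.989% higher and 0.845% lower). Between P7 and P15, 13 members changed, 4 higher and 9 lower, and 25.5% of all genes did (13.4% higher and 12.1% lower). Between P0 and P15, 15 members changed, 4 higher and 11 lower, beside the 23.6% of all genes. In that last comparison 11.4% of all genes were lower and 12.1% higher, and the median log2 fold change was -0.64 over the tested members and 0.04 over all tested genes. The comparisons share libraries, and P15 is common to the last pair. Without P3 replicate 4, no member changed between P3 and P7. The counts include some of the 7 members that passed through their high phases. They were LTB and TNFSF10 in P3 against P0, and both members of P7 against P3 (TNFSF13B and TNFRSF19). In P15 against P7 they were TNFSF18, LTB, NGFR, TNFRSF19 and TNFSF13B, and TNFSF10 joined these against P0. With 1 CPM required in all 16 libraries, which leaves the 7 out, 3, 0, 8 and 9 of 20 members changed. The share of all genes that changed under this filter is not given, so these counts cannot be set against the shares above.

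**Figure D2:**
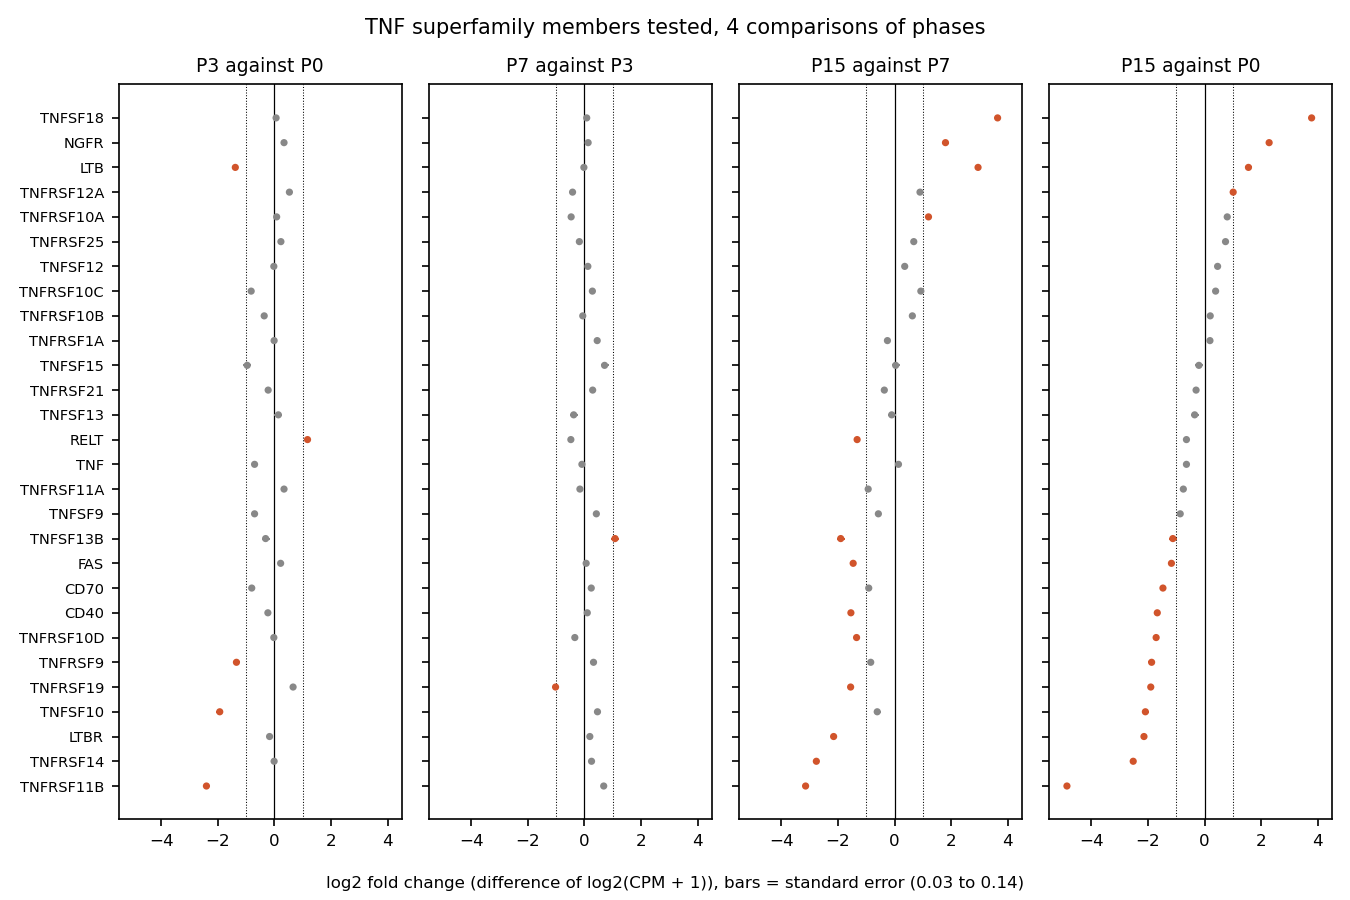
Log2 fold changes (x axis, difference of log2(CPM + 1)) of the 28 tested members (y axis, ordered by P15 against P0) in 4 comparisons of phases, with standard errors of 0.03 to 0.14 as bars. Red points are members that changed by at least 2-fold at an adjusted p-value below 0.05 (5, 2, 13 and 15 members), and dotted lines mark a 2-fold change.

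Among the ligands, TNFSF18 (GITR ligand, a costimulator of T cells) rose most. TNFSF18 had log2 values of 0.07, 0.15, 0.30 and 0.08 in P0, 0.28, 0.32, 0.10 and 0.16 in P3, 0.34, 0.26, 0.36 and 0.21 in P7, and 3.80, 3.71, 4.11 and 4.11 in P15. It was near the limit of detection in the 12 libraries of the earlier phases and well above them in every P15 library. The log2 fold change from P7 to P15 was 3.64 (SE 0.10, limma adjusted p = 1.8e-20), from a mean of 0.226 CPM to 14.4 CPM. Its receptor TNFRSF18 had a phase mean of at most 0.07 on the log2 scale and did not pass the filter.

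LTB, the membrane subunit of lymphotoxin, showed a fall followed by a rise. LTB had log2 values of 1.50, 1.36, 1.88 and 1.6 in P0, 0.21, 0.20, 0.28 and 0.12 in P3, 0.07, 0.31, 0.16 and 0.21 in P7, and 2.94, 3.10, 3.14 and 3.36 in P15. The P15 libraries lay above those of P0, and those of P3 and P7 lay below both and overlapped each other. LTB fell by 1.38 from P0 to P3 (SE 0.11, limma adjusted p = 6.5e-11) and rose by 2.95 from P7 to P15 (SE 0.11, limma adjusted p = 4e-18). Had the pseudocount been 5 and not 1, the first of these would be -0.45, and the rise from P0 to P15 would be 0.87 and not 1.55, both under 2-fold. LTA, its partner in the heterotrimer, reached 0.37 in a single library and was at most 0.29 in the others.

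The receptor of this heterotrimer, LTBR (chromosome 12 of GRCh38, 6375045 to 6391571), was lowest where LTB was highest. LTBR had log2 values of 8.01, 8.08, 8.03 and 8.03 in P0, 7.83, 7.99, 7.83 and 7.81 in P3, 8.08, 7.96, 8.11 and 8.06 in P7, and 5.90, 5.99, 5.79 and 5.92 in P15. The P15 libraries lay far below all others, which spanned 7.81 to 8.11. From P7 to P15 LTBR fell by 2.15 (SE 0.04, limma adjusted p = 1.7e-23), from 265 to 58.8 CPM on average.

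The sequences upstream of the start site are shown for the tested members that rose most and fell most between P0 and P15 among the 28 with an entry in the RefSeq promoter table (build GRCh38.p14). These 28 are another set than the 28 tested members: they include LTA, CD27, EDA2R and TNFSF14, which did not pass the filter. TNFRSF11B, which fell most, and NGFR, which rose more than LTB, have no entry. The members shown are TNFSF18 and LTB, which rose, and TNFRSF14 and LTBR, which fell. LTB has 2 entries, and the first is shown. Each run gives the 250 bases before the RefSeq start of the transcript in the 5′ to 3′ direction of the gene, and capitals mark matches, on either strand, to the NF-kappaB consensus or to the AP-1 element TGANTCA. The windows are chr1:173050942-173051191 (minus strand) for TNFSF18, chr6:31582426-31582675 (minus strand) for LTB, chr1:2556121-2556370 (plus strand) for TNFRSF14 and chr12:6383912-6384161 (plus strand) for LTBR. The GENCODE gene ranges of LTBR, TNFRSF14 and LTB begin further upstream, with other transcripts, so these 3 windows lie inside or overlap them.
TNFSF18: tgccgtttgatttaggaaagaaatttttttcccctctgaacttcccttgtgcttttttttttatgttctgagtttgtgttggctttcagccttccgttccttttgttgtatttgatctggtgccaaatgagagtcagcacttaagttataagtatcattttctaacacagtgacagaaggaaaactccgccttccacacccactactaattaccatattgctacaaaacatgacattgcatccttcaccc
LTB: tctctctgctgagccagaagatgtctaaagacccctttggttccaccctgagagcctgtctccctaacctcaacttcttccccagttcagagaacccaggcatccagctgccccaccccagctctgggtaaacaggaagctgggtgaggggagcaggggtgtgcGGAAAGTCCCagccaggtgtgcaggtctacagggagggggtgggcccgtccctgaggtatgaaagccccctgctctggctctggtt
TNFRSF14: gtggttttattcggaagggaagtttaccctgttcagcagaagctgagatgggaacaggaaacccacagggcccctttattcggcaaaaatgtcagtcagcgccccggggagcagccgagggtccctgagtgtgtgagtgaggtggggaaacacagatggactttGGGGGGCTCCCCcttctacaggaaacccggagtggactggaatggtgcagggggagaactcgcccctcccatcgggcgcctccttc
LTBR: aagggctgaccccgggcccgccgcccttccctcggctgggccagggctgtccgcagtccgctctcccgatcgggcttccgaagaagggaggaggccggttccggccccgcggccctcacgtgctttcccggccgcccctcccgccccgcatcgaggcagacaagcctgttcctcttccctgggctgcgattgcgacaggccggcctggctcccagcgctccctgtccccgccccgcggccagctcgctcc
The LTB window shown held 1 match to the consensus, 86 to 77 bases upstream of the start. In TNFRSF14, which changed in the other direction, the capitals are 3 overlapping matches to the consensus. The consensus was matched in 8 of the 28 members with an entry and in 11.8% of 27303 genes, and TGANTCA in 6 of these members and 8.06% of all genes. The windows of TNFSF18 and LTBR held none of these letters. They also differed in base composition, with 38.8% G or C and 3 CpG in TNFSF18 and 74.8% and 27 CpG in LTBR. A match of letters is a description and not a binding site.

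TNFSF13B (BAFF, a survival factor of B cells) rose at P7 and was almost lost at P15. TNFSF13B had log2 values of 1.02, 1.81, 0.95 and 1.22 in P0, 0.93, 1.26, 0.90 and 0.67 in P3, 2.10, 2.12, 2.02 and 1.85 in P7, and 0.14, 0.13, 0.12 and 0.12 in P15. P0 and P3 overlapped, the P7 libraries lay above them and the P15 libraries below every other library. The log2 fold change was 1.08 from P3 to P7 (SE 0.14, limma adjusted p = 8.6e-07) and -1.90 from P7 to P15 (SE 0.14, limma adjusted p = 8.7e-12), from 3.07 to 0.0924 CPM. Without P3 replicate 4 the rise was 0.99. TNFSF13B fell by 1.12 from P0 to P15, and without P0 replicate 2, the highest P0 library, the difference was -0.94. A pseudocount of 5 brought all 3 differences under 2-fold, to 0.44 (P3 to P7), -0.66 (P7 to P15) and -0.33 (P0 to P15), and those from P3 to P7 and from P0 to P15 also failed the treat test. Its receptor TNFRSF13C moved the other way at low levels, with log2 values of 0.00 to 0.28 in P0 and 1.55, 1.76, 1.76 and 1.39 in P15. TNFRSF13C did not pass the main filter, and it passes a filter of 1 CPM in at least 4 libraries through P15 alone, so its difference of 1.25 between P7 and P15 is a description. The other receptors of BAFF were low throughout, TNFRSF17 between 0.08 and 0.53 and TNFRSF13B at 0 in all 16 libraries.

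TNFSF10 (TRAIL, a ligand that triggers apoptosis through death receptors) fell at the first step and stayed low. TNFSF10 had log2 values of 2.67, 3.01, 2.54 and 2.74 in P0, 0.93, 0.68, 0.62 and 1.00 in P3, 1.00, 1.24, 1.45 and 1.37 in P7, and 0.32, 0.84, 0.83 and 0.62 in P15. All later libraries lay below those of P0, and the ranges of P3 and P15 overlapped. TNFSF10 fell by 1.93 from P0 to P3 (SE 0.13, limma adjusted p = 3.6e-12), from 5.73 to 0.761 CPM. With a pseudocount of 5 the difference was -0.89, under 2-fold.

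CD70, the most abundant ligand, had log2 values of 7.39, 7.60, 7.48 and 7.49 in P0, 6.68, 6.73, 6.67 and 6.69 in P3, 6.96, 6.86, 6.95 and 6.97 in P7, and 6.07, 6.04, 6.06 and 5.92 in P15. The 4 phases did not overlap. The difference of P3 from P0 was -0.80 (SE 0.04, limma adjusted p = 2.5e-14), under 2-fold, and that of P15 from P0 was -1.47 (SE 0.04, limma adjusted p = 1.8e-20). CD27, its receptor on lymphocytes, did not exceed 0.31 in any library.

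TNF itself did not change by 2-fold in any comparison. TNF had log2 values of 5.29, 5.30, 5.27 and 5.38 in P0, 4.55, 4.56, 4.69 and 4.66 in P3, 4.41, 4.42, 4.84 and 4.43 in P7, and 4.43, 4.49, 5.07 and 4.68 in P15. The P0 libraries lay above all others, and the later phases overlapped. The log2 fold change from P0 to P3 was -0.70 (SE 0.10, limma adjusted p = 1.9e-06). Between P7 and P15 it was 0.14, within the replicate error (SE 0.10, limma adjusted p = 0.19). TNF lies between LTA and LTB on chromosome 6 of GRCh38 (LTA 31572054 to 31574324, TNF 31575565 to 31578336, LTB 31580525 to 31582522), and its neighbor LTB rose by 2.95 between P7 and P15.

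The remaining tested ligands did not change by 2-fold on the log2 scale used here. TNFSF9, a costimulatory ligand, had phase means of 5.28, 4.57, 4.99 and 4.42 from P0 to P15, and its receptor TNFRSF9 is described below. TNFSF12 (TWEAK) had means of 3.88, 3.87, 3.99 and 4.35 and TNFSF15, a ligand of TNFRSF25, means of 2.54, 1.58, 2.29 and 2.34. TNFSF15 was close to the rule, with a difference of -0.96 from P0 to P3 (SE 0.14, limma adjusted p = 1.5e-06), from 4.89 to 2.0 CPM. From P3 to P7 it rose by 0.71 (SE 0.14, limma adjusted p = 0.00012), to 4.01 CPM. TNFSF13 (APRIL) had means of 1.28, 1.42, 1.03 and 0.93. It shares 55.5% of its annotated exon bases with the readthrough transcript TNFSF12-TNFSF13, so its reads are uncertain. TNFSF12 shares 13.7% with this transcript and another gene model, so its reads are uncertain too. Of the ligands that did not pass the filter, TNFSF8 had phase means of 0.51 to 1.02 on the log2 scale. TNFSF14 and TNFSF4 stayed at phase means of at most 0.68 and 0.30, and FASLG, the ligand of FAS, was at most 0.08 in any library.

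The death domain receptors of the cell line did not move together. The receptors of TRAIL lie side by side on chromosome 8 of GRCh38, TNFRSF10B at 23020133 to 23069031, TNFRSF10C at 23102921 to 23117445, TNFRSF10D at 23135588 to 23164027 and TNFRSF10A at 23190452 to 23225102. TNFRSF10A and TNFRSF10B signal death, and TNFRSF10C and TNFRSF10D are decoys that lack a working death domain. They are paralogs, so reads that fit more than 1 of them are uncertain, and TNFRSF10C shares 33.0% of its annotated exon bases with other gene models.

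TNFRSF10A, of whose exon bases 16.7% are shared with the opposite strand, had log2 values of 5.13, 5.18, 5.06 and 5.10 in P0, 5.14, 5.29, 5.17 and 5.18 in P3, 4.64, 4.75, 4.71 and 4.80 in P7, and 5.89, 5.87, 5.89 and 6.03 in P15. The P15 libraries were the highest and those of P7 the lowest. It rose by 1.20 from P7 to P15 (SE 0.05, limma adjusted p = 2.3e-17), while its difference between P0 and P15, 0.80, was under 2-fold. TNFRSF10B had log2 values of 7.83, 7.81, 7.89 and 7.87 in P0, 7.52, 7.46, 7.50 and 7.48 in P3, 7.42, 7.44, 7.44 and 7.40 in P7, and 8.01, 8.07, 8.05 and 8.08 in P15. It followed the same order as TNFRSF10A at P7 and P15, and its log2 fold change from P7 to P15 was 0.63 (SE 0.03, limma adjusted p = 2.2e-16), under 2-fold.

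The decoy TNFRSF10D differed in the opposite direction between P7 and P15, whereas from P3 to P7 its difference, -0.34, had the same sign as those of TNFRSF10A (-0.47) and TNFRSF10B (-0.06). TNFRSF10D had log2 values of 5.40, 5.46, 5.38 and 5.26 in P0, 5.31, 5.45, 5.33 and 5.32 in P3, 5.10, 5.02, 4.94 and 4.97 in P7, and 3.71, 3.85, 3.42 and 3.67 in P15. P0 and P3 overlapped, and every P15 library was at or below 3.85. TNFRSF10D fell by 1.71 from P0 to P15 (SE 0.07, limma adjusted p = 2e-17), from 40.6 to 11.7 CPM. The other decoy, TNFRSF10C, had phase means of 1.84, 1.02, 1.30 and 2.23 and thus its highest mean in P15, 0.39 above P0 (SE 0.09, limma adjusted p = 0.00024), under 2-fold. It differed by -0.82 from P0 to P3 (SE 0.09, limma adjusted p = 1.5e-08). From P7 to P15 it rose by 0.93 (SE 0.09, limma adjusted p = 5.6e-10), from 1.47 to 3.7 CPM. That rise had the same sign as those of TNFRSF10A and TNFRSF10B.

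**Figure D3:**
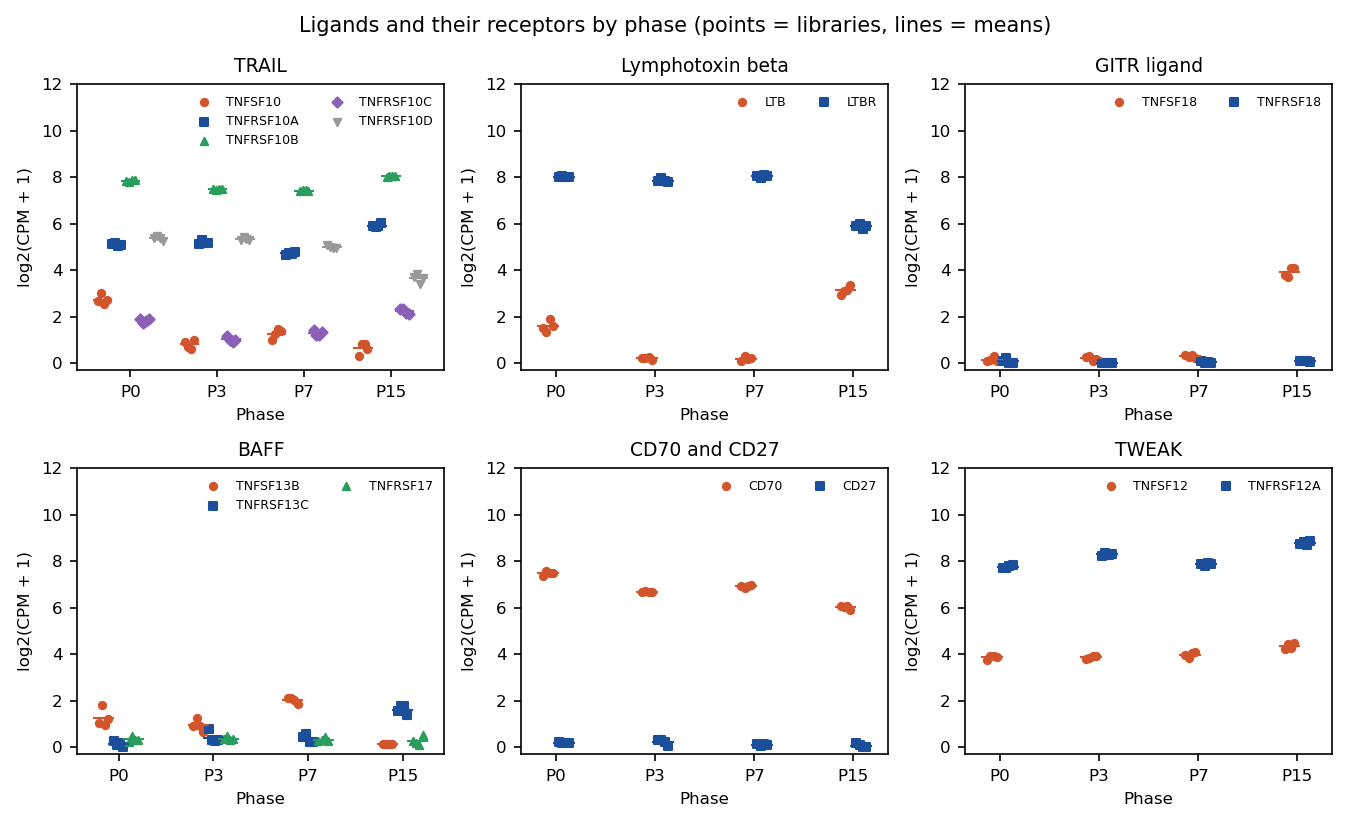
Log2(CPM + 1) (y axis) by phase (x axis) for 6 ligands (red circles) and their receptors (other symbols), with each library as a point and the mean as a line. LTB and LTBR, and the TRAIL receptors TNFRSF10A and TNFRSF10D, differed in opposite directions between P7 and P15, and the receptors CD27 and TNFRSF18 stayed near 0.

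FAS, the receptor of FASLG, had log2 values of 5.26, 5.44, 5.38 and 5.23 in P0, 5.58, 5.44, 5.61 and 5.57 in P3, 5.50, 5.75, 5.61 and 5.58 in P7, and 4.16, 4.17, 4.14 and 4.15 in P15. The first 3 phases lay within 5.23 to 5.75, and the P15 libraries lay below them, between 4.14 and 4.17. FAS fell by 1.46 from P7 to P15 (SE 0.05, limma adjusted p = 5.8e-18), from 47.9 to 16.8 CPM.

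TNFRSF1A, the main receptor of TNF in most tissues, did not change by 2-fold. TNFRSF1A had log2 values of 7.03, 7.06, 7.02 and 7.09 in P0, 7.00, 7.09, 7.04 and 7.02 in P3, 7.49, 7.39, 7.51 and 7.55 in P7, and 7.21, 7.25, 7.27 and 7.22 in P15. Its highest libraries were those of P7, which exceeded P3 by 0.45 (SE 0.03, limma adjusted p = 7.2e-11). TNFRSF1A (6328757 to 6342114) is the neighbor of LTBR on chromosome 12 of GRCh38, which fell by 2.14 from P0 to P15 where TNFRSF1A differed by 0.19. TNFRSF1B, the second TNF receptor and typical of leukocytes and endothelium, was low, with a mean of 0.166 CPM in P0 and 0.863 CPM in P15. TNFRSF1B had log2 values of 0.14, 0.15, 0.30 and 0.29 in P0, 0.45, 0.51, 0.42 and 0.37 in P3, 0.75, 0.71, 1.10 and 0.90 in P7, and 0.93, 1.30, 0.59 and 0.66 in P15. It did not pass the filter, and the P7 and P15 libraries overlapped. Without a filter its log2 fold change from P0 to P15 was 0.65 (SE 0.13, limma adjusted p = 0.00031).

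NGFR, the low-affinity neurotrophin receptor with a death domain, was highest in P15. NGFR had log2 values of 0.00, 0.38, 0.08 and 0.08 in P0, 0.76, 0.43, 0.39 and 0.34 in P3, 0.64, 0.53, 0.52 and 0.74 in P7, and 2.40, 2.49, 2.45 and 2.31 in P15. The P15 libraries lay above every other library, and NGFR was above 0 in 15 of the 16. With a pseudocount of 0.1 the difference of P3 from P0 was 1.44, over 2-fold. NGFR rose by 1.80 from P7 to P15 (SE 0.11, limma adjusted p = 7.1e-14), from 0.527 to 4.33 CPM, and with a pseudocount of 5 the difference was 0.76, under 2-fold. Of its annotated exon bases, 27.2% are shared with gene models of the opposite strand, and the strand setting of the counting is not given in the sources used here. The death domain receptors TNFRSF25 and TNFRSF21 did not change by 2-fold, with phase means of 4.00, 4.23, 4.05 and 4.74 and of 5.46, 5.23, 5.52 and 5.15. EDAR was above 0 in 2 libraries, at no more than 0.07, and EDA2R was at 0 in all 16.

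On the log2 scale used here, the largest difference of any tested member was that of TNFRSF11B (osteoprotegerin, a secreted decoy receptor of RANK ligand and TRAIL). That scale understates TNFSF18, which was near the limit of detection in P0 and went from 0.112 CPM there to 14.4 CPM in P15. TNFRSF11B had log2 values of 5.94, 6.47, 6.0 and 5.91 in P0, 3.76, 3.52, 3.73 and 3.71 in P3, 4.28, 4.47, 4.30 and 4.39 in P7, and 1.33, 1.12, 1.26 and 1.19 in P15. The phases did not overlap, and the order from high to low was P0, P7, P3 and P15. TNFRSF11B fell by 2.40 from P0 to P3 (SE 0.09, limma adjusted p = 1.2e-16), from 67.5 to 11.8 CPM, and by 4.86 from P0 to P15 (SE 0.09, limma adjusted p = 9.1e-24), to 1.34 CPM. TNFRSF11A, the RANK receptor, had phase means of 3.97, 4.31, 4.16 and 3.22 and did not change by 2-fold on this scale. Its difference from P7 to P15 was -0.93 (SE 0.07, limma adjusted p = 2e-11), from 16.9 to 8.39 CPM.

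TNFRSF14 (HVEM, a receptor of LIGHT and lymphotoxin alpha that also binds BTLA) differed little between phases until P7. TNFRSF14 had log2 values of 4.33, 4.60, 4.23 and 4.47 in P0, 4.40, 4.42, 4.40 and 4.36 in P3, 4.64, 4.59, 4.68 and 4.65 in P7, and 1.78, 1.99, 1.92 and 1.85 in P15. The P7 libraries lay just above those of P3, and the P15 libraries lay far below all others. TNFRSF14 fell by 2.76 from P7 to P15 (SE 0.07, limma adjusted p = 1.8e-21), from 23.9 to 2.70 CPM. Its exon bases overlap TNFRSF14-AS1 on the opposite strand over 13.3%.

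CD40, a receptor through which T cells activate antigen-presenting and epithelial cells, was also lowest in P15, at a higher level. CD40 had log2 values of 7.49, 7.47, 7.46 and 7.48 in P0, 7.23, 7.22, 7.26 and 7.26 in P3, 7.35, 7.34, 7.33 and 7.34 in P7, and 5.85, 5.77, 5.81 and 5.79 in P15. The earlier phases lay within 7.22 to 7.49. CD40 fell by 1.54 from P7 to P15 (SE 0.03, limma adjusted p = 2.6e-24), from 161 to 54.9 CPM.

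RELT, an orphan receptor of the family, rose and then fell. RELT had log2 values of 4.45, 4.45, 4.35 and 4.39 in P0, 5.46, 5.62, 5.66 and 5.58 in P3, 5.12, 5.09, 5.11 and 5.06 in P7, and 3.73, 3.89, 3.81 and 3.65 in P15. The phases did not overlap. RELT was the only member that rose from P0 to P3 by the main rule, by 1.17 (SE 0.05, limma adjusted p = 3.4e-15), and it fell by 1.32 from P7 to P15 (SE 0.05, limma adjusted p = 3.5e-17). The rise at P3 failed limma's treat test against a 2-fold change. Of its exon bases, 12.2% are shared with a gene model of the opposite strand.

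TNFRSF19 (TROY, an orphan receptor without a death domain) was highest in P3. TNFRSF19 had log2 values of 2.75, 3.07, 2.77 and 2.79 in P0, 3.50, 3.52, 3.42 and 3.59 in P3, 2.48, 2.44, 2.53 and 2.50 in P7, and 0.85, 1.02, 1.15 and 0.74 in P15. No phase overlapped another. It fell by 1.02 from P3 to P7 (SE 0.09, limma adjusted p = 1.2e-09), at the edge of the 2-fold rule (-0.99 without P3 replicate 4), and by 1.55 from P7 to P15 (SE 0.09, limma adjusted p = 4.5e-14). With a pseudocount of 5 these were -0.68 and -0.70, both under 2-fold, and the first also failed the treat test.

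TNFRSF9 (CD137, the receptor of TNFSF9) had log2 values of 3.37, 3.07, 3.44 and 3.38 in P0, 1.84, 2.11, 2.01 and 1.93 in P3, 2.13, 2.40, 2.30 and 2.33 in P7, and 1.45, 1.42, 1.15 and 1.77 in P15. The phases did not overlap, and P0 was the highest. TNFRSF9 fell by 1.34 from P0 to P3 (SE 0.11, limma adjusted p = 1.4e-10), and it fell by 1.87 from P0 to P15 (SE 0.11, limma adjusted p = 5.9e-14). With a pseudocount of 5 the first of these was -0.82, under 2-fold, and it also failed the treat test. For the ligand TNFSF9 the difference of P3 from P0 was -0.70, under 2-fold (SE 0.05, limma adjusted p = 6e-11), so both had their highest mean in P0.

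TNFRSF12A, the most abundant receptor, had log2 values of 7.72, 7.71, 7.79 and 7.84 in P0, 8.25, 8.38, 8.26 and 8.30 in P3, 7.90, 7.78, 7.94 and 7.87 in P7, and 8.73, 8.82, 8.69 and 8.86 in P15. P0 and P7 overlapped, and P3 and P15 lay above them. The rise from P0 to P15 was 1.01 (SE 0.04, limma adjusted p = 4.3e-17), from 217 to 438 CPM. It lies at the edge of the 2-fold rule and was 0.98 to 1.01 in the 7 alternatives in which it failed it, among them those without P0 replicate 1, P0 replicate 2, P15 replicate 2 or P15 replicate 4. The receptors TNFRSF4 (OX40), TNFRSF8 (CD30) and TNFRSF18 were at or below 0.22 in every library.

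Of the 32 signaling partners of the family, all passed the filter and 10 changed in at least 1 comparison. The list holds TRAF adaptors, death domain adaptors and caspases, ubiquitin ligases and kinases of the receptor complexes, EDARADD and the sheddase ADAM17. It also holds EDA, a ligand that the member list leaves out. In P3, 2 of the 32 had changed, both higher, which is 6.25% of the list beside 4.46% of all genes. The same 2 genes fell between P3 and P7, where 1.83% of all genes changed. Between P7 and P15, 7 changed, 3 higher and 4 lower, or 21.9% of the list, under the 25.5% of all genes. Between P0 and P15, 8 changed, 3 higher and 5 lower, or 25.0% of the list beside the 23.6% of all genes.

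The 2 partners of the first step were TRAF1 and TNFAIP3. TRAF1, an adaptor that joins TRAF2 at receptors such as TNFRSF9, had log2 values of 2.09, 2.03, 1.78 and 2.15 in P0, 4.64, 4.87, 4.60 and 4.64 in P3, 3.40, 3.39, 3.40 and 3.45 in P7, and 4.85, 4.87, 4.88 and 4.97 in P15. TRAF1 rose by 2.68 from P0 to P3 (SE 0.07, limma adjusted p = 1.9e-19). TNFAIP3 (A20, which edits ubiquitin chains and limits NF-kappaB signaling) had log2 values of 6.81, 6.99, 6.80 and 6.91 in P0, 8.37, 8.45, 8.48 and 8.44 in P3, 6.84, 6.88, 6.88 and 6.81 in P7, and 6.03, 6.04, 6.42 and 6.13 in P15. Between P0 and P3 it rose by 1.56 (SE 0.06, limma adjusted p = 8.4e-17) and fell by 1.58 from P3 to P7, back into the range of P0. TRAF1, in contrast, was above P0 in every later library.

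At P15 the partners with the largest changes were CASP10 and BIRC3. CASP10, an initiator caspase of death receptors, had log2 values of 3.95, 4.03, 3.71 and 3.73 in P0, 3.17, 3.18, 3.14 and 3.01 in P3, 3.80, 3.94, 3.86 and 3.81 in P7, and 0.26, 0.07, 0.22 and 0.12 in P15. It fell by 3.68 from P7 to P15 (SE 0.08, limma adjusted p = 1.2e-22), from 13.5 to 0.125 CPM. BIRC3, a ubiquitin ligase that protects from receptor-induced death, had log2 values of 5.65, 5.60, 5.76 and 5.73 in P0, 6.12, 6.08, 6.06 and 6.15 in P3, 5.10, 5.25, 5.00 and 5.09 in P7, and 8.70, 8.70, 8.75 and 8.82 in P15. It rose by 3.63 from P7 to P15 (SE 0.05, limma adjusted p = 2.1e-27), from 33.6 to 428 CPM. FADD, the death domain adaptor of FAS and the TRAIL receptors, had a phase mean of 4.32 in P7 and 2.94 in P15 and fell by 1.37 (SE 0.10, limma adjusted p = 2.3e-12).

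The other partners with a change were IKBKG (NEMO), which fell by 1.67 from P7 to P15, EDARADD, the adaptor of EDAR, which fell by 1.70, and RBCK1, a subunit of the linear ubiquitin ligase, which rose by 1.11. Between P0 and P15, TRAF3 fell by 1.02 and ADAM17, which sheds TNF, rose by 1.01, both at the edge of the 2-fold rule. CASP8 and CFLAR, the caspase and its inhibitor at the same receptor complex, did not change by 2-fold in any of the 4 comparisons. Their phase means were 5.89, 5.76, 6.13 and 5.46 for CASP8 and 5.15, 5.96, 5.27 and 6.0 for CFLAR.

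**Figure D4:**
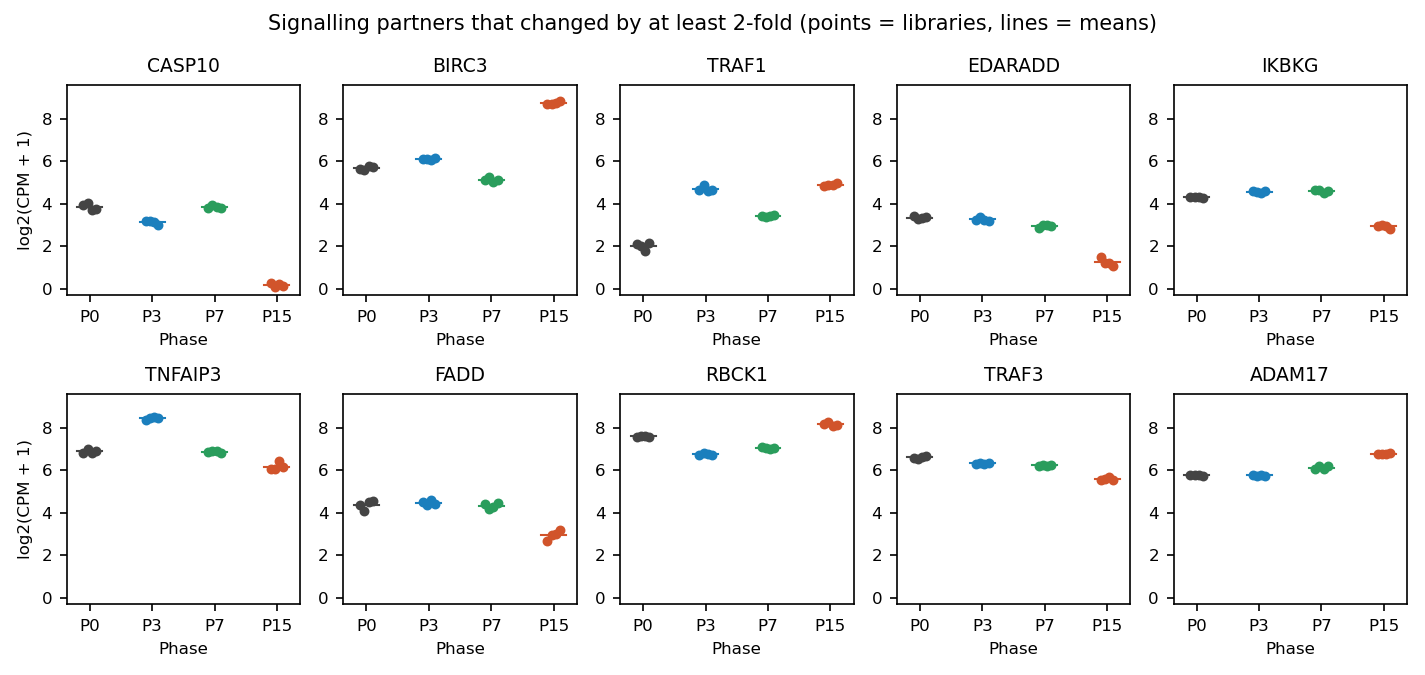
Log2(CPM + 1) (y axis) by phase (x axis) of the 10 signaling partners that changed by at least 2-fold in at least 1 comparison, with each library as a point and the phase mean as a line. CASP10 and BIRC3 lie farthest from the earlier phases at P15, and TRAF1 and TNFAIP3 are the ones that rose at P3.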

How the data were processed

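Per the labels and the study's methods, paired reads of 16 libraries were mapped with STAR 2.6.1a to GRCh38 and summarized per gene with featureCounts, whose strand and multi-mapping settings are not given in the sources used here. The deposited table holds log2 values of CPM with 1 added, given to 2 decimals. Quantile scaling and centring, which the methods mention, were not found in these values. Library depth was estimated from the steps between the lowest values. Within a phase, pairs of libraries varied 2.38 to 26.7 times more than counting alone at levels above 256 CPM, so none was taken as a duplicate. Pairs with replicate 2 varied most in P0 (17.04 to 26.66), P3 (7.64 to 9.11) and P7 (15.07 to 15.61). The other pairs of these phases were at most 6.56. In P15 the pairs with replicate 3 varied most (17.96 to 24.95). Coordinates, exon overlaps and reference transcript lengths come from GENCODE version 44 on GRCh38, which may not be the authors' release.

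Phases were compared in R 4.3.3 with limma 3.58.1 (phase as the only factor, mean-dependent prior, Benjamini-Hochberg adjustment across all 13249 genes above 1 CPM on average). The procedure was also run on simulated counts with equal depth and the same spread beyond counting for every gene. The libraries here vary less evenly, so that run does not vouch for the calls made here. Tables and figures used Python 3.11.15, pandas 2.3.3, numpy 2.4.6 and matplotlib 3.10.9. Library values are given for every member that changed and for TNF, TNFRSF1A, TNFRSF1B, FAS, TNFRSF10A, TNFRSF10B and LTBR, 21 in all. Partners are named if they changed, and CASP8 and CFLAR were added after their values were seen. The members and lists were chosen with earlier results of these data known. Replicate numbers come from the sample descriptions. The alternatives tried are given with their effect in the closing section.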

Additional observations from a re-analysis of the deposited data

Results flagged for a closer look

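Of 84 sets of 4 libraries (21 members in 4 phases), 6 held a library set apart from its replicates by Dixon's test at the 95% level, where 4 would be found by chance at 1 in 20. The test value is the distance to the closest replicate as a share of the full spread. Replicate 2 of P0 was high for TNFRSF11B (log2 value 6.47, test value 0.84) and TNFRSF19 (3.07 and 0.87). Replicate 2 of P3 was high for LTBR (7.99 and 0.89) and TNFRSF10D (5.45 and 0.86). Replicate 3 of P7 was high for TNF (4.84 and 0.95), and replicate 4 of P15 was high for TNFRSF10A (6.03 and 0.88). Replicate 2 of P0 and replicate 2 of P3 were also in the most variable pairs of their phases. The cause was not tested.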

How the results depend on the processing

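The count of changed members moved by over 1.5 times in these cases. With 1 CPM required in all 16 libraries, 20 members were tested and the counts were 3 (P3 against P0), 0 (P7 against P3), 8 (P15 against P7) and 9 (P15 against P0). A pseudocount of 5, which shrinks low values, gave 2, 0 and 9 for P3 against P0, P7 against P3 and P15 against P0, and a pseudocount of 0.1 gave 8 for P3 against P0. Under limma's treat test, which asks for evidence of more than 2-fold, the counts were 3 for P3 against P0 and 0 for P7 against P3, and 1 partner was left for P7 against P3. Leaving out each library gave 5 to 6, 0 to 2, 13 and 13 to 15 members in the order above, the 0 without P3 replicate 4. A replicate block, by the description or the title number, gave 5, 2, 13 and 15, as without it. Deviations of same-numbered libraries correlated at -0.15 to 0.22 (description) and -0.12 to 0.22 (title), and 4 and 5 of 16 libraries were closest to their own number, so the numbers were not taken as pairs. The other settings (no filter, 1 CPM in at least 4 libraries, quantile normalization, a median shift, no trend, phases in pairs) kept every count within 1.5 times. The share of all genes that changed is given for the main setting only, so the counts under other settings have no such share beside them.

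Of the single fold changes, 28 lost and 3 gained the call and 10 changed sign, none of the last beyond 0.05. The sign changes were in LTB, P7 against P3 (0.01 without P3 replicate 3 and 0.02 without P7 replicate 1, range -0.06 to 0.02 with a library left out), TNFRSF10D, P3 against P0 (0.01 without P0 replicate 2, range -0.06 to 0.01), TNFRSF14, P3 against P0 (0.03 with quantile normalization, 0.00 with a median shift, 0.05 and 0.01 without P0 replicates 2 and 4, range -0.07 to 0.05), and TNFRSF1A, P3 against P0 (0.00 with the median shift and without P0 replicate 4 or P3 replicate 1, range -0.03 to 0.00). The 3 gains, all with a pseudocount of 0.1, were NGFR, P3 against P0 (1.44), TNFRSF9, P15 against P7 (-1.14), and TNFSF10, P15 against P7 (-1.21). A count is worth up to 0.0295 CPM, which limits members below 1 CPM.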
